A study of Arabidopsis thaliana and Medicago truncatula and Solanum lycopersicum with 15 samples.

Results

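Open chromatin was described around 8 Arabidopsis thaliana genes whose proteins take nutrients into the root. They were PHT1;1 (AT5G43350) and PHT1;4 (AT2G38940) for phosphate, NRT1.1 (AT1G12110) and NRT2.1 (AT1G08090) for nitrate, and AMT1;1 (AT4G13510) for ammonium. AKT1 (AT2G26650) and HAK5 (AT4G13420) were taken for potassium, and IRT1 (AT4G19690) for iron. The genes were chosen by identifier for their function, and they are 8 of 27444 nuclear protein-coding genes in the gene table. All open regions that overlapped each gene or its flanks were collected from the 8 Arabidopsis region lists. The flanks asked for were 2 kb upstream and 1 kb downstream. The gene table gives no strand, so 2 kb were taken on both sides, which holds the wanted window in either orientation. A region more than 1 kb from a gene falls in the wanted window only if that side is upstream, and the text gives the distance of each region it names.

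Regions came from ATAC-seq, an assay that finds open chromatin by where the Tn5 transposase can insert adapters, with 50000 nuclei per reaction. All plants were in the Col-0 background, and the labels give 16 h of light and 8 h of dark for each of the 4 groups. Root hair cell nuclei came from an ADF8p:NTF/ACT2p:BirA line and non-hair cell nuclei from a GL2p:NTF/ACT2p:BirA line, both from the fully differentiated root zone above the first expanded root hairs and below any lateral root. INTACT root tip nuclei came from 1 cm tips of a UBQ10p:NTF/ACT2:BirA line, which tags nuclei throughout the tip. In INTACT the nuclear envelope tag NTF is biotinylated by BirA and tagged nuclei are caught on streptavidin beads, so each cell type is defined by where 1 promoter is active. Nuclei of 1 cm tips were also isolated by sucrose sedimentation, with no selection for a tag. Each of these 4 groups has 2 lists, which the labels number as replicates without saying whether they came from separate plants. The hair and non-hair lists together are called the 4 epidermal lists. Zone and cell type change together between them and the root tip, so the effects of the 2 cannot be told apart.

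Roots absorb mineral ions through membrane proteins of the outer cell layers. PHT1 proteins carry phosphate together with protons, NRT1.1 is a dual-affinity nitrate transporter that also senses nitrate, and NRT2.1 carries nitrate with high affinity together with its partner NRT3.1. AMT1;1 is a high-affinity ammonium transporter. AKT1 is an inward potassium channel, HAK5 is a high-affinity potassium transporter induced by potassium shortage, and IRT1 brings ferrous iron into epidermal cells of iron-deficient roots. Root hairs enlarge the absorbing surface.

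The lists held 31212 to 52373 regions in the epidermis, 23422 and 23812 in INTACT root tips, and 11819 and 15930 in sucrose root tips. They covered 9.98 to 18.0 Mb in the epidermis, 8.30 and 8.80 Mb in INTACT root tips, and 3.31 and 4.39 Mb in sucrose root tips. Each list has a commonest width, held by 16.9% to 34.5% of its regions and between 127 and 211 bp. No read counts come with the lists, so the depth is unknown. The names were checked against marker genes, by the share of each gene window inside regions. ADF8 was covered over 22.8% and 22.1% in hair lists, against 7.23% and 6.39% in non-hair lists. GL2 was covered over 50.4% and 27.3% in non-hair lists, against 15.4% and 11.6% in hair lists. These are the promoters that drive the tag, so transgene copies carry the same sequence. The summed coverage of 8 root hair markers overlapped between the cell types, at 123 and 194 percentage points in hair lists and 92.7 and 201 in non-hair lists. The sum of 3 non-hair markers was 42.5 and 78.9 points in non-hair lists, against 23.8 and 31.0 in hair lists. Without GL2 the other 2 non-hair markers, WER and MYB23, gave 15.2 and 28.6 points in non-hair lists and 12.3 and 15.7 in hair lists, which overlap. For 5 meristem markers the sum was 26.4 to 57.4 points in the epidermis and 18.2 and 30.7 in INTACT root tips, where the cell cycle gene CYCB1;1 had no region. For 6 ground tissue and stele markers it was 38.8 to 143 points in the epidermis and 35.5 and 51.0 in INTACT root tips, with no region at APL in any list. The markers of other tissues therefore had regions in the epidermal lists too, and their part in the results below was not tested.

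Across the 8 transporter windows the epidermal lists held more regions. The hair lists had 50 and 39 regions and the non-hair lists 50 and 36, against 25 and 19 in INTACT root tips and 7 and 14 in sucrose root tips. The epidermal mean was 43.8 ± 7.32 regions (SD, n = 4), the INTACT root tip mean 22 ± 4.24 (SD, n = 2) and the sucrose root tip mean 10.5 ± 4.95 (SD, n = 2). The median number of regions per gene was also higher in the epidermis over all genes, at 3 and 2 in hair lists and 3 and 2 in non-hair lists, against 1 and 1 in INTACT root tips and 0 and 1 in sucrose root tips. All 8 genes had a region in each epidermal list, 7 and 6 of them in the INTACT root tip lists, and 4 and 5 in the sucrose root tip lists. Of all genes, 82.6% to 91.9% had a region in an epidermal list, 71.7% and 68.6% in the INTACT root tip lists and 49.5% and 59.7% in the sucrose lists, so the counts for the 8 genes lie near those for all genes. A region lay in all 6 INTACT lists (the epidermal and INTACT root tip lists) for 6 genes, as it did for 58.8% of all genes. The 4 genes PHT1;1, AMT1;1, AKT1 and IRT1 had a region in all 8 lists, as did 44.6% of all genes. In sucrose root tip list 1 the only IRT1 region lies more than 1 kb above the gene, so it counts only if that side is upstream. Median widths were 266.5 and 256 bp in hair lists, 288.5 and 294.5 bp in non-hair lists, 312 and 336 bp in INTACT root tips, and 310 and 197 bp in sucrose root tips. Over all regions of the same lists, in that order, they were 259 and 262, 267 and 269, 307 and 287, and 235 and 229 bp. Of the transporter regions, 36% and 31.6% had the commonest width of their list in INTACT root tips, against 8%, 28.2%, 10% and 25% in the epidermal lists. The shares in sucrose root tips were 14.3% and 28.6%. Over all regions the INTACT root tip shares were 22.7% and 34.5%. The epidermal shares over all regions were 17.5%, 19.3%, 16.9% and 21.5%, and the sucrose shares 25.1% and 21.5%.

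**Figure D1:**
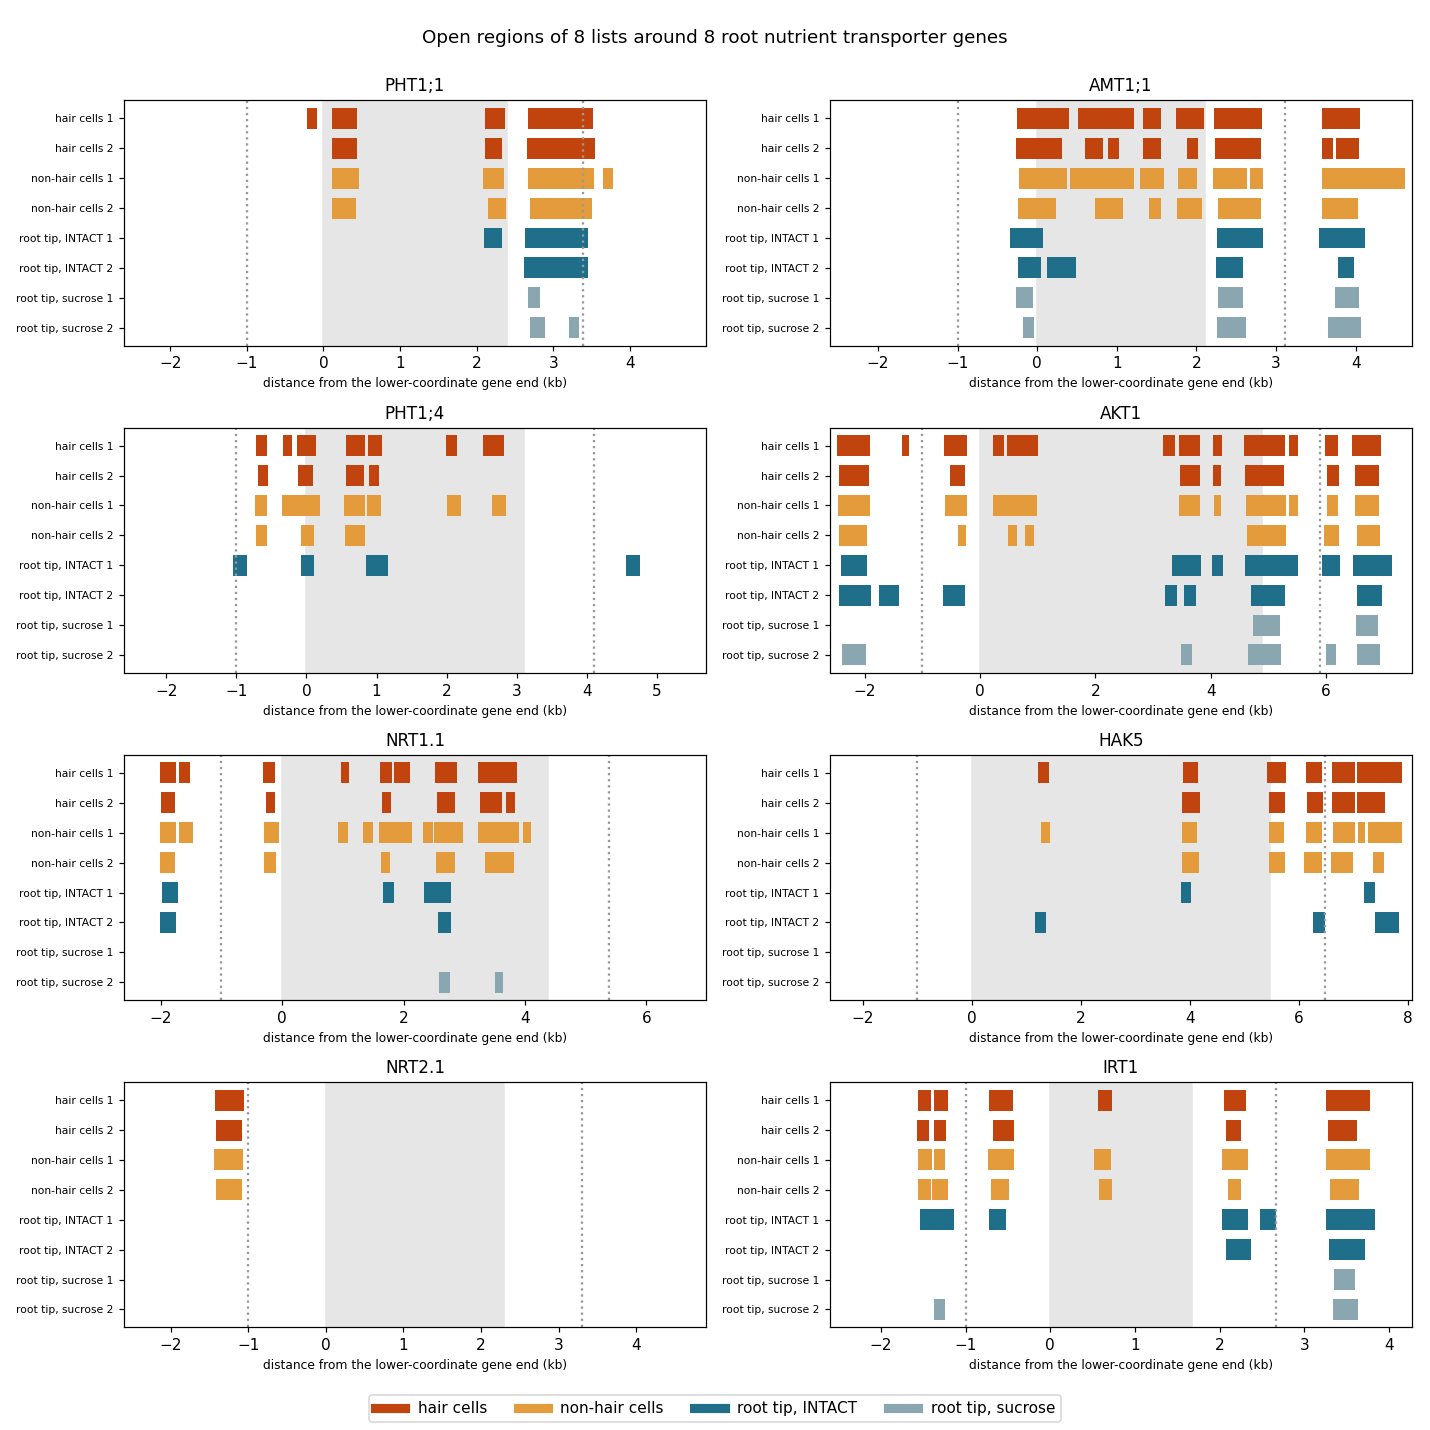
Open regions around each transporter gene in the 8 lists. The x axis is the distance from the lower-coordinate end of the gene in kb, the grey band is the gene, the dotted lines lie 1 kb outside it, and each row is 1 list. NRT2.1 has 1 region in each epidermal list and none in a root tip list, whereas AKT1 and AMT1;1 have regions at shared places in all 8 lists.

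The share of each window inside regions, called coverage here, gave 1 value per gene and list. Differences are in percentage points of the window and were tested with limma over all 27444 genes with Benjamini-Hochberg adjustment. In the comparison of the epidermis with INTACT root tips, the median difference was 9.02 points over the 8 transporters and 5.10 points over all genes. NRT2.1 alone among the 8 passed the threshold of 0.05, where 1.48% of all genes were called higher and 0.0547% lower. Its difference, 5.67 points, was near the all-gene median. It was at 0 in all 4 root tip lists, which add no spread. Its standard error (SE) was 0.402 points, against 2.23 (HAK5) to 6.60 (NRT1.1) for the other transporters. Coverage was above both INTACT root tip lists in all 4 epidermal lists for 5 of the 8 genes (PHT1;1, NRT1.1, NRT2.1, AMT1;1 and HAK5). That held for 40.4% of all genes, and the opposite order, which no transporter showed, for 0.871%. Region numbers separated the same 5 genes, against 29% of all genes. With 4 lists against 2 an exact permutation test cannot give a two-sided p below 0.0667.

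**Figure D2:**
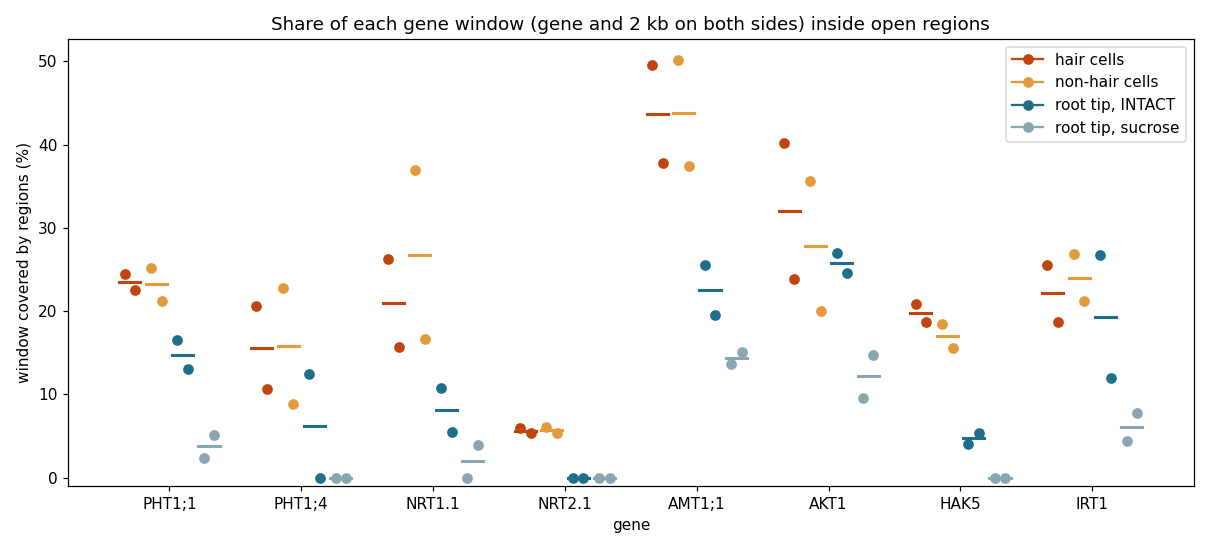
Coverage of each transporter window (gene and 2 kb on both sides, in percent) by group; points are lists and bars are means of 2 lists. The 4 epidermal points lie above both INTACT root tip points for PHT1;1, NRT1.1, NRT2.1, AMT1;1 and HAK5, and overlap them for PHT1;4, AKT1 and IRT1.

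Of the phosphate transporters, PHT1;1 had a flanking region in all groups, wide in the INTACT lists, and a further region inside the gene in the epidermis alone. It is a main phosphate uptake carrier of the root. PHT1;1 coverage was 24.5% and 22.5% in hair lists and 25.2% and 21.3% in non-hair lists, against 16.5% and 13.1% in INTACT root tips and 2.35% and 5.13% in sucrose root tips. The groups do not overlap, and the epidermis was 8.58 ± 2.5 points (SE) above INTACT root tips (limma adjusted p = 0.145, exact permutation p = 0.0667). The flanking region lay 224 to 306 bp above the higher end of the gene and was 807 to 893 bp wide in epidermal lists, against 815 and 834 bp in INTACT root tips. In sucrose root tips 1 region of 150 bp and a pair of 188 and 140 bp overlapped the same stretch. All 6 INTACT lists shared the 749 bp at chr5:17402465-17403213 (TAIR10, counted from 1), and all 8 lists shared its first 127 bp. The epidermal regions inside the gene shared 307 bp at chr5:17399887-17400193, which no root tip list covered. Coverage of the gene body was 22.8% to 25.6% in the epidermis, against 9.96% and 0% in INTACT root tips, so the difference lay mostly there: the 2 kb above the gene were covered over 40.4% to 49.9% in the epidermis and 40.8% and 41.7% in INTACT root tips. PHT1;1 has a near-identical copy, PHT1;2, and how the authors treated reads that match both is not given in the sources used here.

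PHT1;4, the other root phosphate carrier of the family examined, was open in the epidermis but variable in the root tip. Its coverage was 20.6% and 10.6% in hair lists and 22.7% and 8.81% in non-hair lists, against 12.5% and 0% in INTACT root tips and 0% in both sucrose lists. The epidermal and INTACT root tip values overlap, and the difference was 9.46 ± 5.96 points (limma adjusted p = 0.329). Each epidermal list had a region inside the gene that held chr2:16257724-16257979 (256 bp, starting 567 bp from the lower end) and a narrower region that held chr2:16256464-16256592 (129 bp, 564 bp below the gene). Neither stretch was covered in a root tip list. INTACT root tip list 1 had 4 regions, 3 of them at its commonest width of 191 bp, and list 2 had none. The gene AT2G38950 begins 549 bp above PHT1;4, where no epidermal list had a region.

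The nitrate transporters differed from each other in how much was open and where. NRT1.1 had 8 and 6 regions in hair lists and 10 and 5 in non-hair lists, against 3 and 2 in INTACT root tips and 0 and 2 in sucrose root tips. Its coverage was 26.3% and 15.7% in hair lists and 36.9% and 16.6% in non-hair lists, against 10.8% and 5.51% in INTACT root tips and 0% and 3.96% in sucrose root tips. The lower list of each epidermal cell type sat well below the other, yet all 4 were above every root tip list. The difference from INTACT root tips was 15.7 ± 6.60 points (limma adjusted p = 0.207). The gene body was covered over 21.7% to 53.7% in the epidermis and over 14.5% and 4.82% in INTACT root tips. The epidermal lists shared chr1:4104962-4105101 (140 bp, 121 bp below the gene) and, inside the gene, chr1:4108557-4108724 (168 bp) and chr1:4108918-4109047 (130 bp), none of which was covered in a root tip list. All 6 INTACT lists shared 211 bp inside the gene at chr1:4107787-4107997 and 205 bp at chr1:4103249-4103453, which is 1769 bp below it. No list had a region in the 2 kb above the gene.

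NRT2.1 had a single region in its window in every epidermal list and none in any of the 4 root tip lists. It was 375 and 334 bp wide in hair lists and 383 and 337 bp in non-hair lists, wider than the commonest width of each list. The shared stretch was chr1:2522607-2522940 (334 bp), 1082 bp below the lower end of the gene. Coverage was 5.95% and 5.30% in hair lists and 6.08% and 5.35% in non-hair lists, against 0% in all root tip lists. The difference from INTACT root tips was 5.67 ± 0.402 points, at a limma adjusted p of 0.00777 and an exact permutation p of 0.0667. A region in all 4 epidermal lists and neither INTACT root tip list was found for 7.87% of all genes, and for 7.01% when the sucrose lists were also required to lack it. The limma call did not hold in every setting, since the adjusted p was 0.0941 when genes without a region in any list were left out, 0.0784 without INTACT root tip list 2, and 0.0868 and 0.0897 without either sucrose list. The region falls in the wanted window only if the lower side is upstream of NRT2.1. NRT2.2, a close relative, begins 847 bp above the gene, where no list had a region in the NRT2.1 window, and the gene body of NRT2.1 had none in any list.

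AMT1;1 was the most covered of the 8 genes in each epidermal list, and the epidermal regions spread through the gene. Its coverage was 49.5% and 37.8% in hair lists and 50.2% and 37.4% in non-hair lists, against 25.5% and 19.5% in INTACT root tips and 13.7% and 15.0% in sucrose root tips. The groups do not overlap, and the difference from INTACT root tips was 21.2 ± 5.34 points (limma adjusted p = 0.125, exact permutation p = 0.0667). The gene body was covered over 80.3% and 49.8% in hair lists and 81.5% and 49.3% in non-hair lists, against 3.32% and 19.4% in INTACT root tips and 0% in sucrose root tips. The epidermal lists shared 4 stretches of 100 to 146 bp inside the gene that no root tip list covered. The ends were open everywhere: all 8 lists shared chr4:7858001-7858124 (124 bp, 58 bp below the gene), chr4:7860453-7860768 (316 bp, 164 bp above it) and chr4:7861955-7862165 (211 bp, 1666 bp above it). The long noncoding RNA gene AT4G13505 overlaps AMT1;1 over 1709 bp and the gene AT4G13500 ends 249 bp below it, so regions there cannot be assigned to 1 of these genes.

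**Figure D3:**
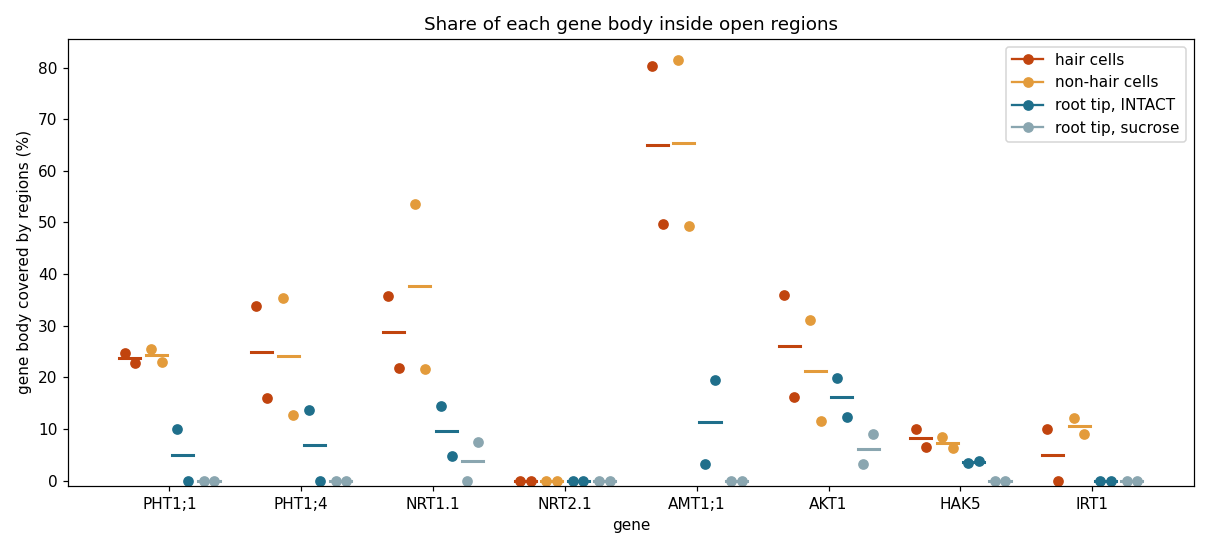
Coverage of the gene body alone (percent of the gene inside regions) by group; points are lists and bars are means of 2 lists. The AMT1;1 body reaches 49.3% to 81.5% in the epidermal lists against 3.32% and 19.4% in INTACT root tips, and the NRT2.1 body has no region in any list.

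The potassium genes differed from each other. AKT1, the inward potassium channel, was open in every group. Its coverage was 40.2% and 23.8% in hair lists and 35.6% and 20.1% in non-hair lists, against 27.0% and 24.5% in INTACT root tips and 9.61% and 14.8% in sucrose root tips. INTACT root tip values lay within the epidermal range, and the difference was 4.20 ± 6.48 points (limma adjusted p = 0.683). No base of the AKT1 window was covered in all 4 epidermal lists and absent from both INTACT root tip lists. All 8 lists shared chr2:11336581-11337056 (476 bp), which crosses the higher end of the gene, and chr2:11338393-11338749 (357 bp), which lies above it. Region numbers were 12 and 7 in hair lists and 9 and 7 in non-hair lists, against 6 and 7 in INTACT root tips and 2 and 5 in sucrose root tips. The gene KCS11 overlaps the lower end of AKT1 by 9 bp, so regions on that side may lie in either gene.

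HAK5, the high-affinity potassium transporter, had 6 and 5 regions in hair lists and 7 and 5 in non-hair lists, against 2 and 3 in INTACT root tips and none in sucrose root tips. Its coverage was 20.8% and 18.6% in hair lists and 18.5% and 15.6% in non-hair lists, against 4.03% and 5.35% in INTACT root tips. The groups do not overlap, and the difference was 13.7 ± 2.23 points (limma adjusted p = 0.0650, exact permutation p = 0.0667). Most of it lay at the higher end. There the 2 kb flank was covered over 56.5% to 71.4% in the epidermis and 9.55% and 14.8% in INTACT root tips. The difference was 53.5 points (limma adjusted p = 0.00586 in a fit of that flank over all genes). That fit was an alternative chosen after seeing the data, so its p-value is not a planned test of HAK5. The flank fit called 1522 genes higher and 41 lower, against 407 and 15 in the fit of whole windows. No list had a region in the 2 kb below the gene. The epidermal lists shared chr4:7802229-7802510 (282 bp, across the higher end), chr4:7802923-7803042 (120 bp, 671 bp above it) and chr4:7803399-7803776 (378 bp, 1147 bp above it), none covered in a root tip list. INTACT root tip regions at HAK5 were at the commonest width of their list in 4 of 5 cases, and the lists overlapped each other there by a single base. The gene IIL1 begins 1611 bp above HAK5, so the outermost epidermal regions reach into it. Part of the 2 kb flank at the higher end therefore lies in IIL1.

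IRT1 was open in the flanks in every group and differed little in its window. Its coverage was 25.5% and 18.7% in hair lists and 26.8% and 21.2% in non-hair lists, against 26.7% and 11.9% in INTACT root tips and 4.35% and 7.81% in sucrose root tips. INTACT root tip list 1 lay within the epidermal range and list 2 below it, with a difference of 3.73 ± 5.01 points (limma adjusted p = 0.632), which was -3.65 without list 2. A region inside the gene was in 3 of the 4 epidermal lists, at 166 bp in hair list 1 and 202 and 152 bp in the non-hair lists, and in no root tip list. All 8 lists shared 247 bp at chr4:10710697-10710943, which lies 1681 bp above the gene. The long noncoding RNA gene AT4G06910 begins 1862 bp above IRT1, so this stretch reaches into it. All 6 INTACT lists also shared 152 bp at chr4:10709445-10709596, 429 bp above IRT1. On the lower side the epidermal lists had 3 regions each, 1 at 427 to 485 bp from the gene and a pair at 1206 to 1428 bp, which INTACT root tip list 1 covered in part and list 2 did not.

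Among stretches of at least 100 bp, 14 in 6 of the genes were covered in all 4 epidermal lists and in no root tip list; 41.9% of all genes had such a stretch. The 14 stretches made up 4.73% of the 8 windows, and such stretches 1.71% of all gene windows. Stretches shared by all 8 lists numbered 7 in 4 genes, against 40.8% of all genes with at least 1. Stretches shared by all 6 INTACT lists numbered 11 in 5 genes, against 50.6% of all genes with at least 1. No transporter had a stretch that both INTACT root tip lists covered and no epidermal list did, which 1.73% of all genes had. The gene bodies were covered over a median of 29.2% and 16.1% in hair lists and 28.3% and 12.1% in non-hair lists, against 6.73% and 1.93% in INTACT root tips. Over all genes the medians were 9.69%, 3.79%, 10.6% and 2.37% in the same epidermal lists and 0% in INTACT root tips.

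The epidermal lists cover more of the genome, and the differences moved when the lists were put on an equal base. After each list was scaled to the same covered length, the median difference over all genes was 0.659 points and that over the 8 transporters 3.94 points. The epidermal lists then stayed above both INTACT root tip lists for NRT1.1, NRT2.1 and HAK5 (24.5% of all genes did so), and AKT1 was lower in all 4 (12.4% of all genes). NRT2.1 had no region in a root tip list, and scaling leaves 0 at 0, so its order was fixed in advance. NRT1.1 was 7.16 points higher, NRT2.1 4.28 points higher (limma adjusted p = 0.0237, where 7.98% of all genes were called higher) and HAK5 8.17 points higher (adjusted p = 0.102). AKT1 was at -9.42 points (adjusted p = 0.0452, where 0.995% of all genes were called lower), IRT1 at -5.76 points, and PHT1;1 at -0.03 points. When each list was cut to its 11702 widest regions, the median difference was 0 over all genes and 1.51 points over the transporters. HAK5 was then 6.18 points and PHT1;1 1.69 points higher without overlap (17.2% of all genes), AKT1 at -5.88 and IRT1 at -9.26 points, also without overlap (4.72% of all genes). None of the 8 passed the limma test with equal numbers of regions, and the smallest adjusted p was 0.171 at IRT1. That fit called 492 genes higher (1.79%) and 263 lower (0.958%), where all regions gave 407 higher and 15 lower. PHT1;4 was at -0.28 points with equal numbers. The direction thus changed in both versions for AKT1 and IRT1, after scaling for PHT1;1 and with equal numbers for PHT1;4. HAK5 was the only gene of the 8 whose epidermal lists were above both INTACT root tip lists in all 3 versions. The share of all genes with that order in all 3 versions was not computed, so HAK5 is not shown to stand out. Its adjusted p with equal numbers was 0.413 (limma). The mean differences of NRT1.1, AMT1;1 and NRT2.1 stayed positive, but the lists overlapped for AMT1;1 in both versions and for NRT1.1 with equal numbers. The NRT2.1 difference could not turn negative in either version, since its root tip lists were at 0. With equal numbers NRT2.1 had a region in non-hair list 2 alone, at 5.35% coverage.

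**Figure D4:**
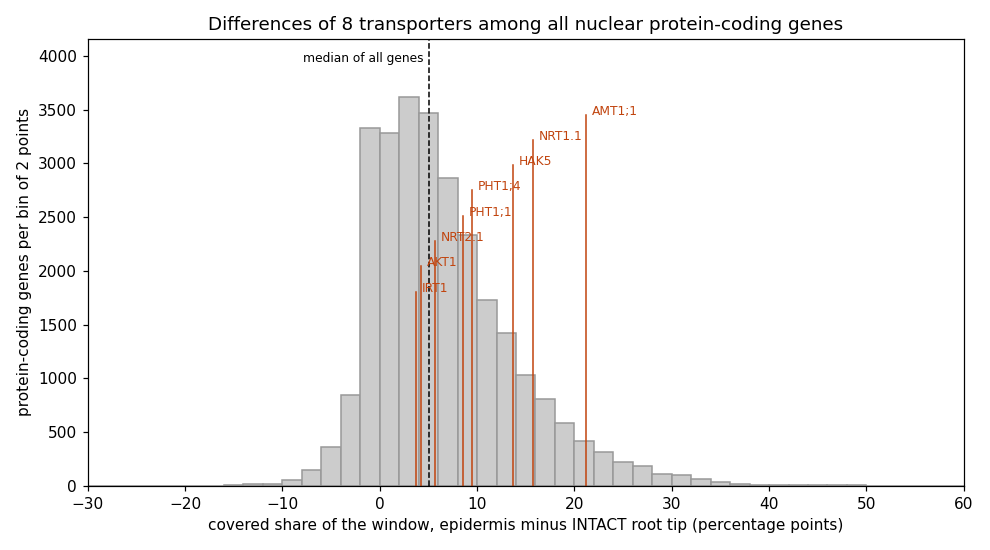
Differences in coverage between the epidermis and INTACT root tips (x axis, percentage points of the window) for all 27444 genes (grey bars, genes per bin of 2 points), with the 8 transporters as vertical lines whose heights only separate the labels. The transporters lie between 3.73 points (IRT1) and 21.2 points (AMT1;1), on both sides of the all-gene median of 5.10.

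Against all 4 root tip lists, sucrose included, 4 of the 8 genes passed the limma test, where 22.3% of all genes were called higher and 0.233% lower. PHT1;1 was 14.1 points higher in the epidermis (adjusted p = 0.0241), AMT1;1 25.3 points (adjusted p = 0.0303), HAK5 16.0 points (adjusted p = 0.0147) and NRT2.1 5.67 points (adjusted p = 0.00290). NRT1.1 was 18.8 points higher at an adjusted p of 0.0564. The 5 genes whose lists separated from INTACT root tips also separated from all root tip lists, as did 40.2% of all genes (0.0838% in the opposite order), each with an exact permutation p of 0.0286, the smallest that 4 lists against 4 allow, and 0.0709 after adjustment over all genes. Both comparisons use the same epidermal and INTACT lists. All epidermal lists are INTACT lists, whereas the root tip side here also holds the sucrose lists. Purification thus differs between the sides, and its effect cannot be told apart from that of tissue. With equal numbers of the widest regions, NRT2.1, AMT1;1 and HAK5 no longer passed, at adjusted p of 0.567, 0.228 and 0.193. PHT1;1 still passed, at 6.82 points (limma adjusted p = 0.0377). The share of all genes called in that version of this comparison was not counted.

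Hair and non-hair cells hardly differed at these genes. The median difference was -0.11 points over the 8 transporters and 0.06 points over all genes. No transporter was called (limma adjusted p = 1 for each), where 0.0109% of all genes were called higher and 0.0109% lower in hair cells. HAK5 was the only member with both hair lists (20.8% and 18.6%) above both non-hair lists (18.5% and 15.6%), at 2.68 ± 2.57 points, and 3.89% of all genes showed that order and 1.32% the opposite order. All 8 genes had a region in each of the 4 lists, as did 81.4% of all genes. For NRT1.1 the difference was -5.76 ± 7.62 points, the widest among the 8. Exact tests of 2 lists against 2 cannot go below 0.333. In both cell types list 1 exceeded list 2 for all 8 genes, and list 1 is the longer list in both. The main fit did not remove this shared order, which adds to the spread, so small differences between the cell types may be missed. No stretch of 100 bp was held by both lists of either cell type and neither list of the other at these genes, against 3.59% of all genes for hair and 1.34% for non-hair cells.

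INTACT and sucrose nuclei from the same kind of root tip differed at 6 of the 8 genes by order alone. Both INTACT lists were above both sucrose lists for all but PHT1;4 and NRT2.1, as for 48.8% of all genes, and the opposite order held for none of the 8 and for 0.623% of all genes. The median difference was 7.19 points over the transporters and 3.06 over all genes. AKT1 differed most, at 13.6 ± 7.49 points, followed by IRT1 at 13.2 ± 5.79 points. No transporter passed (limma adjusted p between 0.782 and 1), where 0.0255% of all genes were called higher and 0% lower. HAK5 had regions in both INTACT lists and no sucrose list, as did 6.38% of all genes. The sucrose lists are the shortest, and the part of list length in this order was not tested.

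Other genes of the same nutrient systems were examined in 6 lists of 55 genes. In 34 of them all 4 epidermal lists were above both INTACT root tip lists, in 21 they overlapped, and in none was the order opposite; 40.4% of all genes are in the first class. The median difference over the 55 was 8.62 points, and 1 gene passed the limma test, where 1.48% of all genes were called higher. That gene was the phosphate transporter PHT1;7, at 6.10%, 6.35%, 6.55% and 5.64% in the epidermal lists and 0% in all root tip lists (6.16 points, adjusted p = 0.00750). As at NRT2.1, root tip lists at 0 add no spread, and the SE of PHT1;7 was 0.431 points. The PHT1;7 call did not hold when genes without a region in any list were left out, since no gene was then called higher. Against all 4 root tip lists, where purification also differs, 27 of the 55 passed, and 22.3% of all genes were called higher. With lists scaled to equal covered length 20 of the 55 were separated upwards and 4 downwards (24.5% and 12.4% of all genes), with a median of 2.68 points against 0.659 over all genes. Separated genes with no region in either INTACT root tip list, such as PHT1;7, PHT1;9, NRT2.7 and COPT2, could not change order under scaling. The shares of all genes also hold such genes. With equal numbers of the widest regions these counts were 15 and 1 (17.2% and 4.72% of all genes), with a median of 2.87 points against 0 over all genes. The median of each of the 6 lists stayed above that of all genes in both versions. After scaling, the medians of the root hair (1.53 points), non-hair (4.66 points) and meristem markers (2.07 points) were above the all-gene median too. That of the ground tissue and stele markers (0.371 points) was below it. The meristem median exceeded those of the nitrate (1.46 points) and potassium lists (1.91 points), so this order after scaling is not particular to nutrient genes. With equal numbers, only the root hair markers among the marker lists were above, at 2.09 points.

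All 5 ammonium genes were separated, and their median difference was 27.4 points (11.8 points after scaling and 14.2 points with equal numbers of regions). AMT1;3 was 31.5 points higher in the epidermis, AMT1;2 29.2 points and AMT2 27.4 points, all ammonium transporters, at adjusted p of 0.133, 0.117 and 0.139. AMT1;2 had 51.8% and 34.6% in hair lists and 47.4% and 36.3% in non-hair lists, against 6.20% and 20.4% in INTACT root tips. All 6 sulfate, boron and copper genes were separated as well, with a median of 11.9 points. The sulfate transporter SULTR1;2 led them at 24.9 points, followed by the boron exporter BOR2 at 16.6 and the copper transporter COPT2 at 15.9 points.

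Of 12 iron genes, 9 were separated, with a median of 10.2 points. The iron and manganese transporter NRAMP1 was 22.1 points higher, the ferric chelate reductase FRO2 19.0 points and the zinc and iron transporter IRT3 16.5 points. FIT, the transcription factor that activates IRT1 and FRO2, was at -3.78 ± 2.95 points (adjusted p = 0.411), with 20.9% and 20.7% in INTACT root tips inside the epidermal range of 13.3% to 21.0%. Of 10 potassium genes, 6 were separated, with a median of 8.01 points. KUP6 led at 21.9 points, then KUP2 at 11.6 points, both potassium transporters, and the calcium sensor CBL1 at 10.9 points, which was below 0 after scaling to equal covered length. CIPK23, the kinase that activates AKT1, was at 0.67 points with overlap.

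Of 12 nitrate genes, 4 were separated, with a median of 7.30 points. They included the nitrate transporter NRT2.7 at 18.7 points, the anion channel SLAH3 at 16.8 and NRT3.1, the partner of NRT2.1, at 14.0 points. NRT3.1 had 37.3% and 29.4% in hair lists and 35.4% and 27.9% in non-hair lists, against 19.7% and 17.3% in INTACT root tips, so regions lay at NRT3.1 in root tips that had none at NRT2.1. Of 10 phosphate genes, 4 were separated, with a median of 5.47 points, near that of all genes. They were led by PHT1;9 at 12.7 points, followed by PHT1;7 and by PHF1, which helps PHT1 proteins leave the endoplasmic reticulum, at 5.52 points. PHR1, the transcription factor of the phosphate starvation response, was at 7.19 points with overlap.

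**Figure D5:**
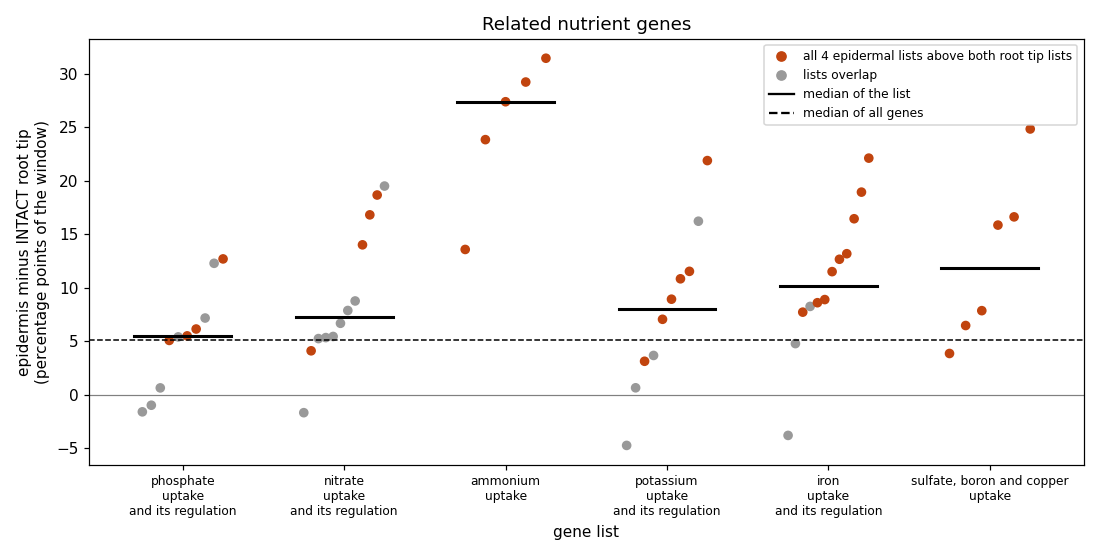
Differences in coverage between the epidermis and INTACT root tips (y axis, percentage points of the window) for 55 related genes in 6 lists; points are genes, red where all 4 epidermal lists are above both root tip lists and grey where they overlap, solid bars are list medians and the dashed line is the all-gene median of 5.10. The ammonium list has the highest median, 27.4, and the phosphate list the lowest, 5.47.

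Over the 8 lists, the mean coverage of the 8 transporters was 26.7% and 19.1% in hair lists and 27.7% and 18.3% in non-hair lists, against 15.4% and 9.99% in INTACT root tips and 3.75% and 5.84% in sucrose root tips. The related genes whose coverage followed this mean most closely were AMT1;3 (Pearson r = 0.991), CBL1 (r = 0.986) and BHLH39 (r = 0.984), a transcription factor of the iron response. The median gene of the table had r = 0.879, and all lists share their overall length with these values.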

How the data were processed

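The authors deposited 1 list of open regions per sample, giving only the chromosome and both ends of each region, with no score. Bowtie2, HOMER and the build TAIR10 are named per the submitters' processing notes, without versions; the list names give a HOMER region setting of 150. How pooled, filtered or multiply matching reads were treated is not given in the sources used here. Lists of the other species and the genomic DNA sample of the 15 samples were not analysed here.

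Genes came from a RefSeq table of TAIR10.1 without strand, exons or sequence, so the window is the gene and 2 kb on both sides in place of 2 kb upstream and 1 kb downstream; sequences are not printed and exons and introns were not told apart. The 2 builds were matched by position: the 100 bp outside gene ends were covered over 34.5% in hair list 1 and 21.8% in INTACT root tip list 1, against 16.8% and 8.36% after a shift of the genes by -5000 bp. Printed coordinates are those of the lists, counted from 1.

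An overlap needed at least 1 bp. Coverage was fitted with limma 3.58.1 (R 4.3.3, mean-variance trend) over 27444 genes and 4 groups of 2 lists, so that all groups share the estimate of the spread, with Benjamini-Hochberg adjustment. Exact two-sided permutation tests were added. These p-values measure the spread between lists, which may be technical. In simulated data for the epidermis against INTACT root tips (27444 genes, 200 changed), 62% of changes of 30 points and 93% of changes of 60 points were recovered, with 7 false among 162 calls. The largest transporter difference in that comparison was 21.2 points, so recovery at the sizes seen here was not measured. The simulated noise was independent between lists and had no differences in list length, so the false calls may not carry over to these data. Python 3.11.15, NumPy 2.4.6, pandas 2.3.3 and Matplotlib 3.10.9 were used. The 8 genes, the related and marker lists and the tests were chosen with earlier results of these data known. Text names at most 3 related genes per list, those with the largest differences among separated genes, and others chosen for their role after their values were seen.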

Additional observations from a re-analysis of the deposited data

How the results depend on the processing

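The median difference of the 8 transporters between the epidermis and INTACT root tips (9.02 points) was 1.51 with equal numbers of the widest regions, 3.94 with lists scaled to equal covered length, 16.5 with regions under 500 bp apart joined, 0.919 in the 2 kb flank at the higher end alone, and 13.3 against all 4 root tip lists, where equal numbers gave 3.87. It was 6.27 to 12.1 when each list was left out in turn. The number of genes called higher (407) was 887 with regions of at least 300 bp, 641 with joined regions, 2189 after scaling, 689 with 1 kb on both sides, 1481 and 1522 in the lower and higher flank, 690 in the gene body, 33 without a trend, 0 (1 lower, and NRT2.1 at adjusted p = 0.0941) among genes with a region in at least 1 list, and 0 to 8968 when 1 list was left out: 0 without either sucrose list, 8968 without non-hair list 2, 824 without hair list 2, 1225 without non-hair list 1, and 172 and 46 without INTACT root tip list 1 and 2. Genes called lower (15) were 263 with equal numbers, 78 at 300 bp, 273 after scaling, 38 and 41 in the flanks, 25 in the gene body, 1 without a trend, and 0 to 376 with 1 list left out. The cause of these shifts was not tested. Without non-hair list 2, PHT1;1 (adjusted p = 0.0440), NRT1.1 (0.0330), AMT1;1 (0.0283) and HAK5 (0.0152) passed.

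Directions turned for AKT1 to -5.88 (equal numbers; -0.83 against all root tip lists), -0.59 (300 bp), -9.42 (scaled) and -1.53 (lower flank). For IRT1 they turned to -9.26 (equal numbers; -3.71 against all root tip lists), -3.97 (300 bp), -5.76 (scaled), -9.66 (higher flank) and -3.65 (without INTACT root tip list 2; 11.1 without list 1). PHT1;4 was at -0.28 with equal numbers and -4.78 in the higher flank, PHT1;1 at -0.030 after scaling, and AMT1;1 at -2.14 in the lower flank. NRT2.1 was at 0 in windows that do not reach beyond 1 kb on the lower side, and at an adjusted p of 0.0703 without a trend and 0.766 with equal numbers. Members with a region in all 6 INTACT lists numbered 3, not 6, in the lower flank. Summed region numbers were 19.3 in the epidermis and 12 in INTACT root tips at 300 bp or more, and 21.3 in the epidermis with joined regions.

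With the replicate number as a block, 229 genes were called higher and the median difference stayed at 9.02 points. Against all 4 root tip lists the block brought PHT1;4 (adjusted p = 0.0480) and NRT1.1 (0.0463) past the threshold. The share of all genes called in that fit was not counted, so these 2 are not shown to stand out. Without the block 22.3% of all genes were called higher in that comparison. No label says that a number marks shared plants, so the numbers were not taken to pair the lists in the main fit. Deviations of same-numbered lists correlated over genes at 0.626 for hair and non-hair cells and at -0.184 to 0.0404 for the other pairs of groups. Same-numbered hair and non-hair lists thus moved together, and the 4 epidermal lists may not be 4 independent values. List 1 is the longer list in both cell types. The part of list length in this correlation was not tested, so the correlation does not settle whether the lists are independent. Planned windows of the upstream flank alone, and of 1 kb upstream to the gene end, were not run, since the table has no strand. The flank, gene body and 1 kb windows in their place, and windows for each orientation, were chosen after seeing the data. Depth is unknown, so a missing region is not shown to be closed chromatin.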
